A study of Mus musculus with 6 samples.

Results

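The 8 genes described here encode the classical MHC class I presentation machinery of the mouse and the PD-1 ligand PD-L1, and they were taken by name, 8 of the 34187 gene features counted. MHC class I molecules carry peptides from proteins made inside a cell to its surface, where CD8+ T cells read them. H2-K1 and H2-D1 encode the heavy chains and B2m the light chain that holds the complex at the surface. Tap1 and Tap2 encode the transporter that brings peptides into the endoplasmic reticulum, and Tapbp encodes tapasin, which tethers the empty complex to that transporter. Nlrc5 encodes the transactivator of class I genes. Cd274 encodes PD-L1, which restrains T cells through PD-1. Interferon gamma induces most of these genes, and low class I levels are a known feature of many tumors, while NK cells can attack cells that lack class I.

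Transcripts had been counted by 10x GEM-X 5' single-cell RNA sequencing of cells isolated with CD45 beads from 6694c2vTRP1 pancreatic tumors, grown subcutaneously in C57BL/6 mice. All mice received 2 intraperitoneal doses of PBS, mono-IL10 or IL10/2-Trikine every other day from day 8, and tumors were collected on day 14. Mono-IL10 (26 µg per mouse) is a monomeric IL-10, and IL10/2-Trikine (30.6 µg per mouse) is an IL-10 based cytokine built to bind the beta chain of the IL-2 receptor too. Each group had 5 hashtagged mice pooled into 1 library, so treatment and library cannot be told apart in any comparison below. The labels give the number of mice for both cytokine groups, and the PBS library held 5 hashtags. The 6694c2vTRP1 tumor is a transplanted line, so its tumor cells stand for 1 line in every mouse.

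The 3 libraries held 30528 to 55504 barcodes and 364814102 to 515236552 gene UMIs. The median was 9474 UMIs per kept cell in PBS, 11643.5 with mono-IL10 and 6399 with IL10/2-Trikine. The libraries shared 250 to 441 kept barcodes with each other, or 0.724% to 1.29% of the kept cells. Counts were summed per mouse in 5 classes of cells. Named from markers, 19828 tumor epithelial-like cells, 15512 macrophage or monocyte-like cells and 1082 dendritic cell-like cells entered, and 876 T cells and 498 NK cells carried the authors' annotation. Clusters that the markers left unnamed, some of them scoring best for macrophages or tumor cells, entered no class named from markers. The tumor cells were present although the isolation had used CD45, and their 7 epithelial markers, such as Epcam and Krt8, summed to 4002 to 6120 CPM in each mouse, where CPM is the usual scaling of UMIs to a common library total. All 15 mice entered each class, except that mono-IL10 mouse 3 had fewer than 10 NK cells and was left out there. Levels by mouse are CPM of the mouse's UMIs in that class, scaled with TMM factors within the class, and differences are log2 fold changes of edgeR's quasi-likelihood fit, ± SE, with p adjusted over all genes tested. A gene was called at an adjusted p under 0.05. H2-K1 and H2-D1 are related in sequence, and reads that match both equally are dropped by the counting, so their levels carry some uncertainty.

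Letters of known class I control elements stood at the same spacing in the promoters of H2-K1, H2-D1 and B2m. The 250 bases before the RefSeq start are printed for the heavy chain and light chain genes, whose counts carry most of the results, and for Cd274. They come from the GRCm38.p6 assembly, at chr17:34000348-34000597 (minus strand) for H2-K1, chr17:35262844-35263093 (plus strand) for H2-D1, chr2:122147437-122147686 (plus strand) for B2m and chr19:29367188-29367437 (plus strand) for Cd274. The counts had been made on GRCm39, and no coordinate was moved between the builds. Capitals mark the letters TGACG (core of the X2 element) and ATTGG (Y box) where 20 bases lie between them, and matches to AANNGAAA (core of an interferon regulatory factor site) on either strand.
H2-K1: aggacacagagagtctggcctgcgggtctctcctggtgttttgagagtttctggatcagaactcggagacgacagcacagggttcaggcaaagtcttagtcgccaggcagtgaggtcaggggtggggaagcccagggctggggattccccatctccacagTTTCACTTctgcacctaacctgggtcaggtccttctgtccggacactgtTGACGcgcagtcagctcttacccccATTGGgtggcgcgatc
H2-D1: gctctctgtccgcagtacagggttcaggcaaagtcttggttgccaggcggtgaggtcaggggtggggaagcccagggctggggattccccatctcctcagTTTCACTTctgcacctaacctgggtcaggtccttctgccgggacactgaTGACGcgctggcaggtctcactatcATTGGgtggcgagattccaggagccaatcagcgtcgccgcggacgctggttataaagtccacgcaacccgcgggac
B2m: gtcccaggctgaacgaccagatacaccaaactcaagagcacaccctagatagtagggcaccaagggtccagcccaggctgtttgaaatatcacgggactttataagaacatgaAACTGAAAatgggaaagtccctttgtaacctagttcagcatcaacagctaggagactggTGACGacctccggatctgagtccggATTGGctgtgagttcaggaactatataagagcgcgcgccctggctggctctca
Cd274: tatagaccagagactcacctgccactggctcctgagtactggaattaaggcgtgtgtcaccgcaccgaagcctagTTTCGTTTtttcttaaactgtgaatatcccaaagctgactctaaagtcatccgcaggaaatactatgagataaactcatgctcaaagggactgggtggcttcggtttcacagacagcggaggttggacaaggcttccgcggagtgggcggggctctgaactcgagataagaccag

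The spaced pair of TGACG and ATTGG began 41 bases before the printed start of H2-K1, 101 before that of H2-D1 and 78 before that of B2m. Searched on both strands, it was found in 30 of 32851 RefSeq windows of 250 bases, or 0.0913%, and this spacing was chosen after the 3 sequences had been read. Each of these 3 genes also held AANNGAAA, at 90, 150 and 137 bases before the start, and Cd274 held it at 175 bases. RefSeq gave H2-K1 a second start, from which the pair lay at 55 bases and AANNGAAA at 104, and both of its windows are among the 30. That motif alone was found in 21.3% of all windows. TGACG was present in 17.8%, ATTGG in 33.8% and the GAS letters TTCNNNGAA in 7.02%, with no GAS match in the 7 windows of the members. Tap1 held TGACG and, on the other strand, ATTGG, and Tapbp held ATTGG, both without the pair at this spacing. The table of promoters matched 6 of the 8 genes, and Tap2 and Nlrc5 were not among them. A match describes letters in a window and shows no binding.

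**Figure D1:**
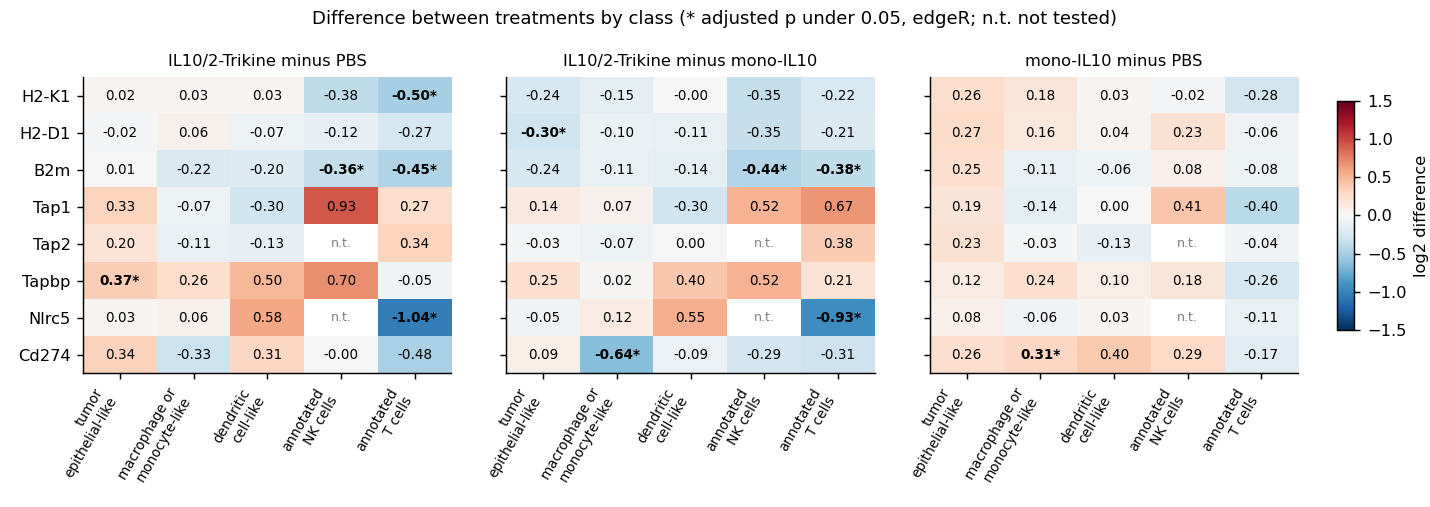
Log2 difference between treatments for each of the 8 genes (vertical) in each class of cells (horizontal), 1 panel per comparison, from edgeR on counts summed per mouse. Asterisks mark an adjusted p under 0.05, and n.t. marks genes with too few counts for the test. Calls in the lymphocyte columns all point down with IL10/2-Trikine, while in the tumor column Tapbp was up against PBS and H2-D1 down against mono-IL10.

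Some class I presentation transcripts were lower in the T cells of IL10/2-Trikine mice. B2m, H2-K1 and Nlrc5 fell against PBS, and B2m and Nlrc5 fell against mono-IL10. In the comparison with PBS, 3 of 8 members were called, all lower, where 8.97% of all genes tested were called. Against mono-IL10, 2 of 8 were called, both lower, beside 12.3% of all genes. Mono-IL10 against PBS gave 0 of 8 calls by edgeR, where 1.72% of all genes were called, and 0 by DESeq2. Unadjusted, 1 member had p under 0.05. The median log2 difference of the 8 genes between IL10/2-Trikine and PBS was -0.36, and that of all genes was -0.01. These comparisons share groups of mice and are not independent of each other.

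B2m, the light chain, was at 5202, 4856, 5189, 5753 and 5214 CPM in the T cells of PBS mice 1 to 5. It was at 4907, 4829, 5022, 5400 and 4725 CPM with mono-IL10 and at 3962, 3793, 3939, 4380 and 3208 CPM with IL10/2-Trikine. All 5 IL10/2-Trikine mice lay below all 10 others, while the PBS and mono-IL10 ranges overlapped. B2m fell by 0.45 ± 0.07 on the log2 scale against PBS (edgeR, adjusted p = 0.000193) and by 0.38 ± 0.07 against mono-IL10 (adjusted p = 0.000678). Both calls were kept in all 24 alternatives tried.

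H2-K1, a heavy chain, was at 2992, 2873, 2869, 3127 and 3191 CPM in PBS T cells. It was at 2391, 2431, 1996, 2967 and 2567 CPM with mono-IL10 and at 2520, 2019, 2274, 1842 and 1927 CPM with IL10/2-Trikine. The IL10/2-Trikine mice did not overlap with PBS, and the mono-IL10 mice overlapped with both. H2-K1 fell by 0.50 ± 0.10 against PBS (edgeR, adjusted p = 0.0014), a call kept in all 24 alternatives, and its difference from mono-IL10 was -0.22 ± 0.10 (adjusted p = 0.128). H2-D1, the other heavy chain, was at 1954, 1835, 1928, 1950 and 1763 CPM in PBS and at 1632, 1404, 1787, 1568 and 1516 CPM with IL10/2-Trikine. Mouse 3 of the treated group lay within the PBS range, and the difference of -0.27 ± 0.09 did not pass (edgeR, adjusted p = 0.0576), although DESeq2 called it.

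Nlrc5, the class I transactivator, was at 171, 127, 131, 140 and 141 CPM in PBS T cells, at 162, 89.1, 92.2, 148 and 132 CPM with mono-IL10 and at 81.6, 67.1, 60.9, 49.8 and 68.5 CPM with IL10/2-Trikine. All 5 IL10/2-Trikine mice lay below the other 10. These levels rested on 2 to 12 UMIs in each IL10/2-Trikine mouse. Nlrc5 fell by 1.04 ± 0.26 against PBS (edgeR, adjusted p = 0.0136) and by 0.93 ± 0.25 against mono-IL10 (adjusted p = 0.0122). Both calls were lost without IL10/2-Trikine mouse 2 (-1.03, edgeR, adjusted p = 0.0513, and -0.90, adjusted p = 0.0576) and with at least 30 cells per mouse (-0.99, adjusted p = 0.0573, and -0.90, adjusted p = 0.0532).

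The clusters that held the T cells differed between libraries. Among the tested T cells, 249 in PBS, 446 with mono-IL10 and 181 with IL10/2-Trikine, naive clusters made up 20.5%, 34.8% and 1.10%, and the Cycling_T cluster 17.3%, 22.2% and 51.9%. Levels of single clusters below also take in annotated cells with no mouse, which makes 342, 580 and 299 T cells. Pooled within the PBS library, Nlrc5 was at 309 CPM (208 to 441, exact 95% Poisson interval) in naive_CD8T and 230 (131 to 374) in naive_CD4T, against 69.6 (42.5 to 107) in Cycling_T and 88.5 (51.6 to 142) in act_CD4T. In the mono-IL10 library these were 175 (142 to 213), 191 (118 to 291), 107 (86.6 to 132) and 103 (75.4 to 137) CPM, and the IL10/2-Trikine library had 0 UMIs in 2 naive_CD8T cells and 1 naive_CD4T cell. Both Nlrc5 calls were lost without the naive clusters (-0.68, edgeR, adjusted p = 0.207 against PBS, and -0.58, adjusted p = 0.257 against mono-IL10) and without Cycling_T (-1.14, adjusted p = 0.103, and -0.87, adjusted p = 0.150). Without the naive and Cycling_T clusters the differences were -0.73 (edgeR, adjusted p = 0.475) and -0.23 (adjusted p = 0.833). In T cells with 0 UMIs of 7 genes of other cells, Epcam, Krt8, Krt18, Krt19, C1qa, C1qb and C1qc, they were -0.49 (edgeR, adjusted p = 0.474) and -0.36 (adjusted p = 0.558). The naive alternatives were chosen after seeing the data. With IL10/2-Trikine Nlrc5 in Cycling_T was at 44.9 CPM (29.6 to 65.4), below the mono-IL10 interval and overlapping with that of PBS, while gdT/NKT cells had 120 (79.9 to 174), 71.8 (43.9 to 111) and 99.4 (51.4 to 174) CPM in the order PBS, mono-IL10 and IL10/2-Trikine. These intervals cover counting error only. The 5 NK markers summed to 157 to 400 CPM in PBS T cells, 139 to 255 with mono-IL10 and 523 to 825 with IL10/2-Trikine, with all 5 detected, and the 5 T cell markers summed to 2661 to 3450, 4011 to 4513 and 1750 to 2455 CPM. Their part in the Nlrc5 difference was not tested.

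B2m was lowest with IL10/2-Trikine within each of the 4 T cell clusters that had over 20 cells in every library. Pooled by library, with the same intervals, B2m in Cycling_T was at 4619 CPM (4374 to 4874) in PBS, 3798 (3668 to 3931) with mono-IL10 and 3254 (3112 to 3402) with IL10/2-Trikine. In Treg it was at 6308 (5882 to 6757), 5739 (5357 to 6141) and 3679 (3211 to 4196) CPM. In act_CD4T it was at 4254 (3968 to 4556), 3931 (3749 to 4119) and 2705 (2338 to 3113) CPM. The PBS library was highest in each, and gdT/NKT cells had 4413, 4250 and 3454 CPM. H2-K1 in Cycling_T was at 2403 CPM in PBS but at 1675 with mono-IL10 and 1727 with IL10/2-Trikine, both below the PBS library. The 12 macrophage markers, with 11 or 12 detected, summed to 1484 to 1950 CPM in PBS T cells. They summed to 1860 to 2608 with mono-IL10 and 995 to 1611 with IL10/2-Trikine. Of these, C1qa, C1qb and C1qc together were at 136, 137 and 169 CPM, pooled by library, so most of the sum came from other markers. The B2m calls were kept in T cells free of the 7 transcripts above, with 4 IL10/2-Trikine mice left.

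The transport and loading genes Tap1, Tap2 and Tapbp were not called in T cells. Tap1 was at 171, 148, 150, 187 and 108 CPM in PBS, 161, 66.0, 92.2, 142 and 97.7 with mono-IL10 and 181, 157, 264, 149 and 225 with IL10/2-Trikine. The IL10/2-Trikine mice overlapped with both other groups, and the difference from mono-IL10 was 0.67 ± 0.24 (edgeR, adjusted p = 0.0632), which was called without mono-IL10 mouse 1 (0.87, adjusted p = 0.0208) and on library totals without TMM factors (0.72, adjusted p = 0.0415). Tap2 differed from PBS by 0.34 (95% interval -0.22 to 0.90) and Tapbp by -0.05 (-0.49 to 0.38), and both intervals include 0. Cd274 in T cells spanned 45.3 to 206 CPM over the 15 mice, and its difference from PBS was -0.48 ± 0.32 (edgeR, adjusted p = 0.386).

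**Figure D2:**
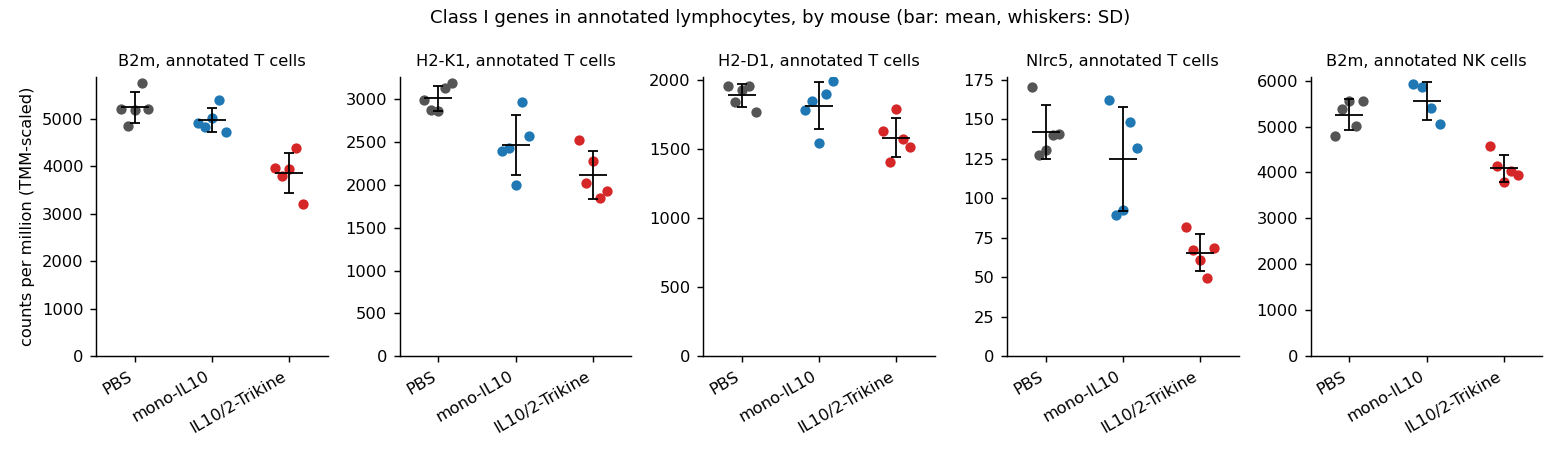
TMM-scaled CPM (vertical axis, from 0) of B2m, H2-K1, H2-D1 and Nlrc5 in annotated T cells and of B2m in annotated NK cells, 1 point per mouse by treatment, with bars for the mean and whiskers for the SD. The IL10/2-Trikine points lie below all PBS points for B2m, H2-K1 and Nlrc5, with 1 H2-D1 point inside the PBS range.

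NK cells showed the same direction for B2m. It was at 4799, 5380, 5561, 5020 and 5550 CPM in PBS mice, 5917, 5859, 5413 and 5050 CPM in mono-IL10 mice 1, 2, 4 and 5, and 4578, 4135, 3800, 4024 and 3936 CPM in IL10/2-Trikine mice. No IL10/2-Trikine mouse reached the lowest mouse of either other group. B2m fell by 0.36 ± 0.08 against PBS (edgeR, adjusted p = 0.0113) and by 0.44 ± 0.09 against mono-IL10 (adjusted p = 0.00723). It was the 1 call among 6 members tested in each of these comparisons, beside 4.42% and 2.38% of all genes. Mono-IL10 against PBS gave 0 calls of 6 by edgeR, where 0.297% of all genes were called, and 0 by DESeq2. Unadjusted, 0 members had p under 0.05. The call against PBS was lost with no filter on low counts (-0.25, adjusted p = 0.656), and the call against mono-IL10 was lost without mono-IL10 mouse 1 (-0.41, adjusted p = 0.0542).

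H2-K1 in NK cells was at 2148, 2129, 2773, 2827 and 2824 CPM in PBS, 2525, 2818, 2506 and 2153 with mono-IL10 and 2204, 1937, 1786, 1857 and 2004 with IL10/2-Trikine. Mouse 1 of the IL10/2-Trikine group overlapped with the others, and the difference from PBS was -0.38 ± 0.12 (edgeR, adjusted p = 0.0728). H2-D1 did not overlap between IL10/2-Trikine and mono-IL10, at -0.35 ± 0.13 (edgeR, adjusted p = 0.159). Tapbp did not overlap there either, in the other direction, at 0.52 ± 0.21 (edgeR, adjusted p = 0.217). Tap1 and Tapbp had positive differences from PBS, 0.93 ± 0.33 and 0.70 ± 0.26, that did not pass the test (edgeR, adjusted p = 0.12 and 0.134). Tap2 and Nlrc5 had too few UMIs in NK cells to be tested. PBS mice had 10 to 31 NK cells each, and the NK markers summed to 917 to 1729 CPM in PBS, 1388 to 1679 with mono-IL10 and 1515 to 2294 with IL10/2-Trikine.

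Pooled by library, the annotated NK cluster had 4214 CPM of B2m (4054 to 4379) in PBS, 4462 (4351 to 4576) with mono-IL10 and 3391 (3279 to 3507) with IL10/2-Trikine. Cycling_NK cells were fewer, with 4, 10 and 54 cells, and had 3076 CPM (2826 to 3343) with IL10/2-Trikine. C1q transcripts, a sign of macrophage RNA, stood at 1.01% to 1.35% of their macrophage level in NK cells and at 1.78% to 2.14% in T cells. B2m in macrophages was below that in lymphocytes of the same library. In lymphocytes free of those 7 transcripts the IL10/2-Trikine library was lowest too, with 3325 CPM in NK cells and 3312 in T cells. The other libraries had 4190 to 4730 CPM. This filter left 48 NK cells of 3 PBS mice and 104 T cells of 4 IL10/2-Trikine mice.

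In macrophage or monocyte-like cells Cd274 was the 1 member that passed the test. Cd274 was at 132, 163, 163, 210 and 176 CPM in PBS mice, 248, 218, 161, 223 and 197 CPM with mono-IL10 and 123, 132, 134, 147 and 141 CPM with IL10/2-Trikine. The IL10/2-Trikine mice lay below all mono-IL10 mice and overlapped with the lowest PBS mouse. Cd274 fell by 0.64 ± 0.12 with IL10/2-Trikine against mono-IL10 (edgeR, adjusted p = 0.00153), the 1 call of 8 there, beside 10.7% of all genes. It rose by 0.31 ± 0.11 with mono-IL10 against PBS (adjusted p = 0.0402), again 1 of 8, beside 24.6% of all genes. IL10/2-Trikine against PBS gave 0 of 8 calls by edgeR, where 15.5% of all genes were called, and 0 by DESeq2. Unadjusted, 3 members had p under 0.05, and Cd274 stood at -0.33 ± 0.12 (edgeR, adjusted p = 0.0628).

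The macrophage clusters that held the cells differed between libraries. Shares below count cells with a hashtag call. Pooled cluster levels also take in cells without a call, and their intervals cover counting error only. Cluster 1 held 27.5% of the PBS macrophages, cluster 59 held 27.8% of the mono-IL10 macrophages and cluster 38 held 30.9% of the IL10/2-Trikine macrophages. In each library Cd274 was lowest in cluster 10 and highest in cluster 49, a cluster led by the interferon-induced genes Rsad2 and Ifit2. Within the PBS library it ran from 80.8 to 428 CPM, with 121 in cluster 38, 160 in cluster 59 and 149 in cluster 1. With IL10/2-Trikine it ran from 72.7 to 413 CPM, with 92.9, 111 and 119 in the same clusters. In each of the 9 macrophage clusters the pooled Cd274 level was lower with IL10/2-Trikine than with mono-IL10. In cluster 7 these were 193 CPM (165 to 225) and 247 CPM (237 to 259), and in cluster 49 they were 413 (351 to 482) and 616 (563 to 672). With the clusters held at fixed weights, over the 8 with enough cells in every mouse, the difference between IL10/2-Trikine and mono-IL10 was -0.32 (exact permutation test, p = 0.0317 before adjustment). At the same weights, mono-IL10 differed from PBS by 0.10 (exact permutation test, p = 0.540 before adjustment). Over the 24 values tested at these weights a lone gene cannot reach an adjusted p below 0.190, and 4 genes at the smallest p would be needed. The adjusted p at these weights thus cannot show whether a lone gene kept its call. The p of mono-IL10 against PBS was over 0.05 before adjustment too. Both differences were smaller than in the edgeR fit (-0.32 against -0.64 and 0.10 against 0.31). Of the other 25 alternatives, the call against mono-IL10 was kept in 25 and that of mono-IL10 against PBS in 11, and the latter was lost without PBS mouse 1, 2, 3 or 5, mono-IL10 mouse 1, 2 or 4, or IL10/2-Trikine mouse 2 or 3, with values from 0.23 (adjusted p = 0.125) to 0.33 (adjusted p = 0.0527). The 5 T cell markers, all detected, summed to 9.54 to 23.1 CPM in PBS macrophages, 8.06 to 19.4 with mono-IL10 and 34.0 to 53.6 with IL10/2-Trikine, and the 7 epithelial markers to 33.9 to 68.6, 38.4 to 65.4 and 64.3 to 109. Their part in the Cd274 difference was not tested.

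The class I genes were not called in macrophages. B2m was at 3111, 4205, 3252, 3577 and 3047 CPM in PBS, 3573, 3157, 3296, 3352 and 2550 with mono-IL10 and 2875, 2826, 2665, 3338 and 3042 with IL10/2-Trikine. The 3 groups overlapped, and the difference between IL10/2-Trikine and PBS was -0.22 (95% interval -0.41 to -0.03, edgeR, adjusted p = 0.134). For H2-K1 it was 0.03 (-0.15 to 0.21), for H2-D1 0.06 (-0.10 to 0.23) and for Nlrc5 0.06 (-0.21 to 0.33). Tapbp was at 156, 145, 146, 201 and 159 CPM in PBS and at 170, 182, 204, 215 and 203 CPM with IL10/2-Trikine, overlapping through PBS mouse 4. Its difference of 0.26 ± 0.10 had an adjusted p of 0.0923 (edgeR), and without PBS mouse 4 it was called (0.34, adjusted p = 0.0168). Without it, mono-IL10 against PBS also gave calls for H2-K1 (0.26, adjusted p = 0.0212), H2-D1 (0.22, adjusted p = 0.0416) and Tapbp (0.32, adjusted p = 0.0133), and Tapbp was also called there without mono-IL10 mouse 3 (0.32, adjusted p = 0.0167). PBS mouse 4 was the highest PBS mouse for 7 of the 8 genes in macrophages, with B2m the exception.

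**Figure D3:**
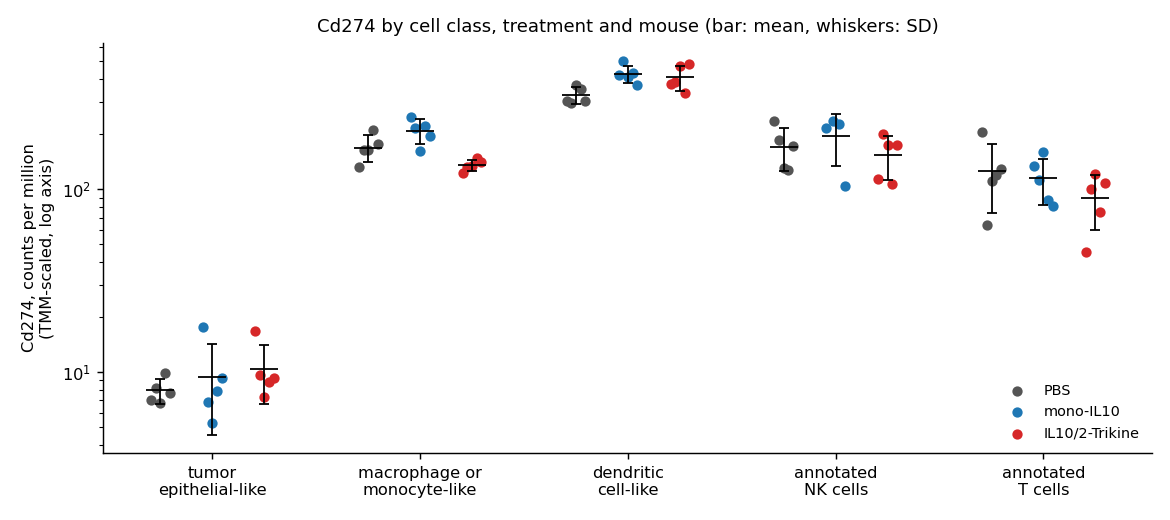
Cd274 level (TMM-scaled CPM, log axis) in the 5 classes of cells, 1 point per mouse by treatment, with bars for the mean and whiskers for the SD. In macrophages the IL10/2-Trikine mice, at 123 to 147, lie below the mono-IL10 mice, at 161 to 248, and tumor cells stand far below the other classes.

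Over the 5 classes, Cd274 was highest in dendritic cell-like cells, at 298 to 501 CPM over the mice. By the ends of their ranges macrophages (123 to 248 CPM), NK cells (104 to 235 CPM) and T cells (45.3 to 206 CPM) followed, and neighbours overlapped. The median was higher in NK cells (175 CPM) than in macrophages (163 CPM). Tumor cells were lowest, at 5.25 to 17.7 CPM. B2m had another order, with 3800 to 5917 CPM in NK cells, 3208 to 5753 in T cells, 2855 to 4822 in tumor cells, 2550 to 4205 in macrophages and 2295 to 3721 in dendritic cells, and neighbours overlapped throughout. Each class was scaled on its own, so these orders are descriptions.

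Dendritic cell-like cells had 0 calls among 8 members by edgeR in each comparison, beside 0.805% of all genes for IL10/2-Trikine against PBS, 1.97% against mono-IL10 and 2.4% for mono-IL10 against PBS. At an unadjusted p under 0.05 there were 3, 1 and 1 members, and DESeq2 called 1, 0 and 1. Cd274 was at 306, 298, 373, 353 and 303 CPM in PBS, 424, 501, 411, 432 and 371 with mono-IL10 and 378, 385, 471, 336 and 483 with IL10/2-Trikine. Mono-IL10 mouse 5 lay just inside the PBS range. The difference between mono-IL10 and PBS was 0.40 ± 0.11 (edgeR, adjusted p = 0.0642, DESeq2, adjusted p = 0.0159). Tapbp was at 167, 154, 189, 176 and 158 CPM in PBS and at 230, 222, 177, 239 and 325 CPM with IL10/2-Trikine. The treated mouse 3 overlapped with PBS, and the difference was 0.50 ± 0.14 (edgeR, adjusted p = 0.106, DESeq2, adjusted p = 0.0421). C1q transcripts in dendritic cells stood at 16.8% of their macrophage level in PBS, 13.3% with mono-IL10 and 22.9% with IL10/2-Trikine. In the 237, 140 and 94 dendritic cells with 0 UMIs of the 7 epithelial and C1q genes named for T cells, the pooled Cd274 level was 372, 430 and 511 CPM, with IL10/2-Trikine highest, where over all dendritic cells it was 309.6, 396 and 388 CPM. In these cells Cd274 with mono-IL10 differed from PBS by 0.30 (edgeR, adjusted p = 0.468) and Tapbp with IL10/2-Trikine by 0.36 (adjusted p = 0.724), and the part of other cells' RNA in either difference was not tested.

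Mature dendritic-like cells, the cluster named from Ccr7 and Fscn1, had the highest pooled level of 6 of the 8 genes among the dendritic clusters of each library, and the type 1-like cluster had the highest Tap1 and Tap2, with 200.4 and 111 CPM against 89.7 and 72.5 in the mature cluster within the PBS library. The conventional type 1-like cluster was led by Clec9a and Xcr1. Cluster 32 scored highest for conventional type 2 markers, but its 10 leading genes held 1 of them, Cd209a, and the mature markers Ccr7 and Ccl22, so it is given by its number. Within the PBS library Cd274 was at 534 CPM (497 to 574) in the mature cluster, 234 (215 to 254) in the type 1-like cluster and 231 (212 to 250) in cluster 32, and B2m was at 4259, 2394 and 2451 CPM. Among dendritic cells with a hashtag call, the mature cluster made up 31.0% in PBS, 30.9% with mono-IL10 and 47.1% with IL10/2-Trikine. The pooled levels of the clusters also take in cells without a call. In cluster 32 Cd274 was at 330 CPM (304 to 358) with mono-IL10 and 230 (193 to 272) with IL10/2-Trikine, beside 231 in PBS. In the type 1-like cluster it was at 322 (290 to 357) and 328 (264 to 403) CPM, beside 234 in PBS. In the mature cluster it was at 616 (567 to 668) and 529 (470 to 595) CPM. These intervals cover counting error only and hold no spread between mice. The IL10/2-Trikine library had 28 type 1-like cells with a hashtag call.

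In tumor epithelial-like cells the groups overlapped for H2-K1 and Tap1, whose lowest and highest mice were both mono-IL10 mice. Tapbp was the 1 member of 8 called with IL10/2-Trikine against PBS, beside 21.6% of all genes. H2-D1 was the 1 member called against mono-IL10, beside 31.7% of all genes. Mono-IL10 against PBS gave 0 calls by edgeR, where 5.57% of all genes were called, and 0 by DESeq2. Unadjusted, 2 members had p under 0.05. With 8 members, counts of 0 or 1 cannot be told apart from these shares of all genes.

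Tapbp in tumor cells was at 111, 106, 102, 130 and 105 CPM in PBS, 151, 107, 92.8, 121 and 130 with mono-IL10 and 171, 137, 122, 142 and 144 with IL10/2-Trikine. PBS mouse 4 overlapped with the lowest IL10/2-Trikine mouse. Tapbp rose by 0.37 ± 0.11 (edgeR, adjusted p = 0.0239). The call was lost without PBS mouse 2 (0.35, adjusted p = 0.0555), PBS mouse 3 (0.34, adjusted p = 0.056) or IL10/2-Trikine mouse 1 (0.31, adjusted p = 0.0566). It was also lost in tumor cells with 0 UMIs of C1qa, C1qb, C1qc, Lyz2, Cd74 and Ptprc, taken as leukocyte genes (0.14, edgeR, adjusted p = 0.562). This filter left 538 cells in PBS and 1880 with IL10/2-Trikine. It also lowered other members, with pooled H2-K1 in PBS at 1139 CPM against 1584 unfiltered and Tap1 at 18.9 against 30.7. Whether it removed leukocyte RNA or tumor cells high in these genes was not tested. At fixed weights of the tumor clusters the difference was 0.28 (exact permutation test, p = 0.0159 before adjustment), in a test of 24 values where a lone gene cannot reach an adjusted p below 0.190, so it shows no loss of the call. The 12 macrophage markers, all detected, summed to 1872 to 2305 CPM in PBS tumor cells, 1934 to 2223 with mono-IL10 and 1837 to 2461 with IL10/2-Trikine. Of these, C1qa, C1qb and C1qc together were at 43.3, 20.6 and 48.9 CPM, pooled by library, so most of the sum came from other markers of the list. Other marker lists stood apart with IL10/2-Trikine. The 4 Treg markers summed to 20.4 to 32.8 CPM there, against 15.3 to 18.0 in PBS and 13.3 to 16.7 with mono-IL10, the 5 NK markers to 2.48 to 3.89 against 1.54 to 2.32 and 1.37 to 2.12, and the 5 plasmacytoid dendritic markers to 117 to 125 against 97.8 to 107 and 83.8 to 99.2, all detected. The 7 epithelial markers summed to 4002 to 4462 CPM with IL10/2-Trikine, against 4445 to 6120 in PBS and 5338 to 5985 with mono-IL10. Their part in the Tapbp difference was not tested.

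H2-D1 was at 930, 1025, 915, 1163 and 895 CPM in PBS tumor cells, 1448, 1092, 856, 1212 and 1343 with mono-IL10 and 1020, 952, 897, 922 and 1053 with IL10/2-Trikine. The 3 groups overlapped. H2-D1 fell by 0.30 ± 0.11 with IL10/2-Trikine against mono-IL10 (edgeR, adjusted p = 0.0453), and the call was kept in 12 of 24 alternatives. It was lost without PBS mouse 1 or 2, mono-IL10 mouse 1, 4 or 5, or IL10/2-Trikine mouse 1, 2, 3 or 4, with values from -0.21 (adjusted p = 0.144, without mono-IL10 mouse 1) to -0.30 (adjusted p = 0.0603, without IL10/2-Trikine mouse 1). It was also lost on library totals without TMM factors (-0.23, edgeR, adjusted p = 0.120), with thinned totals (-0.28, adjusted p = 0.0557) and in marker-free tumor cells (-0.27, adjusted p = 0.0690). At fixed weights of the clusters, under the same limit on the adjusted p, it was -0.20 (exact permutation test, p = 0.159 before adjustment). Without mono-IL10 mouse 3, H2-D1 and B2m were called higher with mono-IL10 than in PBS (0.36, adjusted p = 0.0289, and 0.34, adjusted p = 0.0423).

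Mono-IL10 mouse 3 was the lowest of the 15 mice for all 8 genes in tumor cells, and mono-IL10 mouse 1 the highest for 6 of them, with PBS mouse 4 highest for Nlrc5 and IL10/2-Trikine mouse 1 for Tapbp. H2-K1 was at 2372 CPM in mono-IL10 mouse 1 and at 1188 in mono-IL10 mouse 3, against 1362 to 1974 in PBS and 1446 to 1734 with IL10/2-Trikine. Tap1 was at 58.4, 23.1, 14.2, 33.3 and 43.9 CPM in the mono-IL10 mice, at 28.1, 29.1, 23.5, 45.8 and 26.8 in PBS and at 50.5, 36.2, 34.7, 34.9 and 38.3 with IL10/2-Trikine. The mono-IL10 range took in every other mouse.

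A tumor cluster led by the interferon-induced genes Iigp1, Cxcl10 and Gbp2 carried the highest levels. With the libraries pooled and cells without a hashtag call included, its 1277 cells had 2443 CPM of H2-K1, 5338 of B2m, 139 of Tap1 and 60.4 of Cd274. The other 11 tumor clusters had 744 to 1645 CPM of H2-K1, 1731 to 3569 of B2m, 13.9 to 36.3 of Tap1 and 3.84 to 9.25 of Cd274. Its level over the median of the others was 9.73 times for Cd274, 5.98 times for Tap1 and 1.67 times for H2-K1. These 8 genes had been kept out of the clustering, but other interferon-induced genes had not, so this is a description.

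The share of this cluster among a mouse's tumor cells, which all carry a hashtag call, was 3.65%, 3.76%, 1.86%, 6.85% and 2.77% in PBS. It was 11.96%, 2.56%, 0.164%, 4.59% and 6.01% with mono-IL10 and 8.32%, 3.87%, 2.97%, 4.97% and 5.06% with IL10/2-Trikine. The mice that were highest in their group for Tap1, PBS mouse 4, mono-IL10 mouse 1 and IL10/2-Trikine mouse 1, were also highest in this share. The cluster's cells are counted in these Tap1 levels. The groups overlapped. An interferon-led cluster of 320 macrophages also had higher levels, with the libraries pooled and cells without a call included. It had 2147 CPM of H2-K1 against 979 to 1411 in the other 8 clusters and 162 CPM of Tap1 against 33.9 to 67.3.

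**Figure D4:**
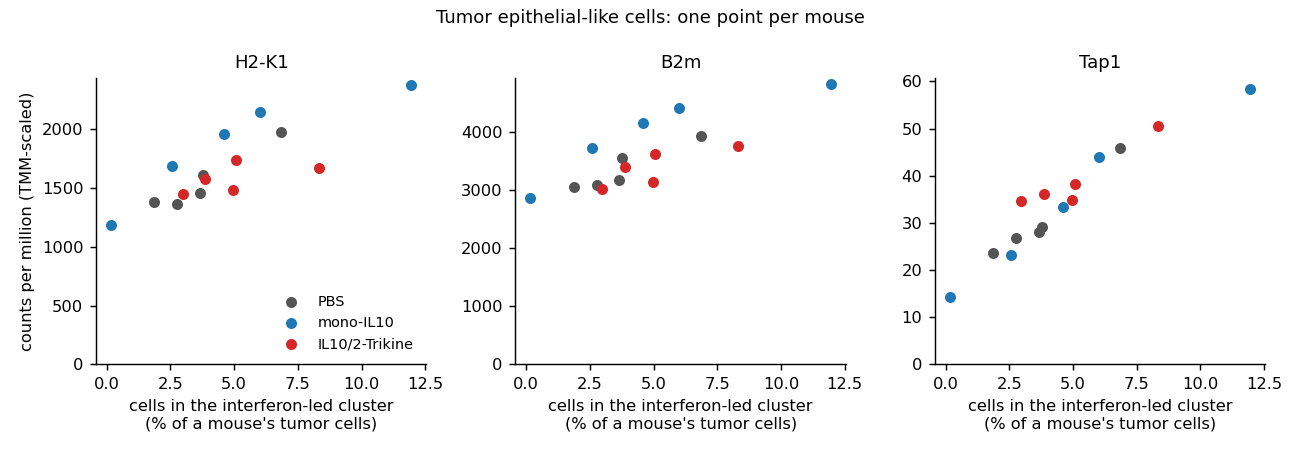
TMM-scaled CPM of H2-K1, B2m and Tap1 in tumor epithelial-like cells (vertical axes, from 0) against the share of the interferon-led cluster among each mouse's tumor cells (horizontal axis, percent), 1 point per mouse by treatment. Mono-IL10 mouse 3, at a share of 0.164%, is lowest and mono-IL10 mouse 1, at 11.96%, highest for each gene. For H2-K1 the order between them is uneven, with at most 1734 CPM at shares up to 8.32% with IL10/2-Trikine. PBS mice reach 1974 CPM at shares up to 6.85%. The cluster's cells are counted in the levels, so both axes share cells.

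Cd274 in tumor cells was at 7.06, 8.20, 6.78, 9.91 and 7.70 CPM in PBS, 17.7, 6.87, 5.25, 7.91 and 9.32 with mono-IL10 and 16.7, 9.64, 7.32, 8.80 and 9.30 with IL10/2-Trikine. The groups overlapped, and the difference between IL10/2-Trikine and PBS was 0.34 (95% interval -0.18 to 0.87, edgeR, adjusted p = 0.396). The pooled level was 4.78% of that in macrophages of the same library in PBS, 4.53% with mono-IL10 and 7.28% with IL10/2-Trikine, where C1q transcripts in tumor cells were at 0.604%, 0.267% and 0.619% of their macrophage level. In tumor cells free of the 6 leukocyte transcripts, Cd274 was at 4.13 CPM in PBS, 3.54 with mono-IL10 and 6.08 with IL10/2-Trikine, from 56, 51 and 114 UMIs. The filter lowered H2-K1 and Tap1 in every library too, and what it removed was not tested.

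Hashtag antibodies for the mouse bind CD45 and MHC class I, so levels were also compared between cells with and without a hashtag call. Of the tumor epithelial-like cells, 49.9% in PBS, 38.5% with mono-IL10 and 51.3% with IL10/2-Trikine carried no hashtag call, against 2.5% to 7.83% of macrophages. H2-K1 in tumor cells without a call was at 60.4%, 62.5% and 65.6% of its level in tumor cells with 1 call, in the order PBS, mono-IL10 and IL10/2-Trikine. B2m was at 64.7%, 64.5% and 69.1% and H2-D1 at 64.5%, 66.3% and 69.8%. Genes whose products are not at the cell surface with the complex were also lower without a call, Tap1 at 55.4%, 65.4% and 72.4%, Tap2 at 69.7%, 68.0% and 82.8%, Nlrc5 at 70.3%, 72.5% and 72.9% and Tapbp at 86.3%, 87.1% and 95.8%.

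Cells without a call were also shallower, with a median of 15976 gene UMIs against 26280 in PBS tumor cells. Within clusters the H2-K1 level stayed at 62.1%, 65.6% and 65.6%, and within bins of gene UMIs per cell it was 56.3%, 62.8% and 62.4%. In macrophages, which carry CD45, B2m without a call was at 92.1%, 83.4% and 95.5% and H2-K1 at 75.9%, 63.1% and 74.7%. Other members were higher without a call in some libraries, with Tap1 at 116%, 103% and 87.8%, Tap2 at 76.8%, 112% and 110%, Nlrc5 at 109%, 124% and 91.8% and Cd274 at 82.1%, 124% and 88.4%. In dendritic cell-like cells without a call, H2-K1 was at 65.5%, 70.3% and 70.3% and B2m at 67.8%, 71.7% and 74.9%. Tap1, at 115%, 103% and 108%, and Tap2, at 105%, 121% and 119%, were higher there without a call. The levels by mouse in tumor cells describe the cells with a call, which had more class I transcripts than those without. With 1 library per treatment these shares have no replicate.

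**Figure D5:**
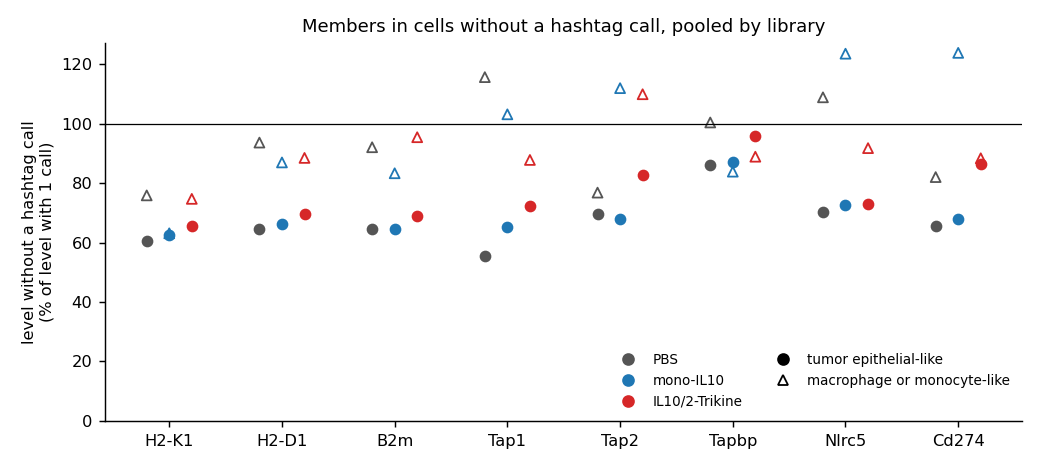
Pooled level of each gene in cells without a hashtag call as a percent of its level in cells with 1 call (vertical axis, from 0, with a line at 100%), by library, for tumor epithelial-like cells (filled circles) and macrophage or monocyte-like cells (open triangles). Tumor cells without a call lie at 60.4% to 69.8% for H2-K1, H2-D1 and B2m.

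Whether a treatment difference itself differed between classes was tested over mice that entered both classes. With tumor, dendritic and T cells each set against macrophages, there were 72 differences, and 0 passed after adjustment (exact two-sided permutation test, lowest adjusted p = 0.143). Unadjusted, 12 had p under 0.05, and 4 of these were at 0.00794, the smallest p that 5 against 5 mice allow, while at least 12 would have to be there for an adjusted p under 0.05. Those 4 were Nlrc5 in T cells against macrophages for both IL10/2-Trikine comparisons (-1.20 and -1.05), H2-K1 in T cells against macrophages for mono-IL10 minus PBS (-0.48) and Cd274 in tumor cells against macrophages for IL10/2-Trikine minus PBS (0.61). Calls in 1 class and not in another are thus not shown to differ between classes.

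Wider lists of 29 genes covered nonclassical class I, peptide supply, loading and folding, interferon gamma signalling and PD-1 partners. In T cells, 3 of 25 tested were called lower with IL10/2-Trikine than in PBS and 0 higher, beside the 8.97% of all genes. H2-Q7, a nonclassical class I gene, fell by 0.48 ± 0.15 (edgeR, adjusted p = 0.0412), Ifngr1, a chain of the interferon gamma receptor, by 0.47 ± 0.13 (adjusted p = 0.0192) and Jak2, its kinase, by 0.95 ± 0.25 (adjusted p = 0.0165). Against mono-IL10, 2 of 25 were lower and 1 higher, beside 12.3% of all genes. H2-Q7 fell by 0.44 (edgeR, adjusted p = 0.0416), a call that DESeq2 did not make (adjusted p = 0.0607), and Ifngr1 by 0.47, while Calr, a chaperone of class I folding, rose by 0.54 ± 0.15 (edgeR, adjusted p = 0.0214). NK cells had 1 of 18 called, beside 4.42% of all genes, Canx, the calnexin chaperone, which rose by 0.65 ± 0.17 against PBS (adjusted p = 0.0251). The other comparisons of NK cells gave 0 of 18 by edgeR and 0 by DESeq2, each with 3 at an unadjusted p under 0.05, and mono-IL10 against PBS in T cells gave 0 of 25 by edgeR and 1 by DESeq2, with 4 at an unadjusted p under 0.05. The members of the H2-Q family are close copies of each other, so their counts carry such uncertainty too.

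In tumor cells, 2 of 27 list genes were called lower with IL10/2-Trikine than with PBS and 0 higher, beside 21.6% of all genes. Pdia3, a disulfide isomerase of the loading complex, fell by 0.48 ± 0.03 (edgeR, adjusted p = 9.56e-08) and Jak1, another interferon receptor kinase, by 0.22 ± 0.05 (adjusted p = 0.00352). Against mono-IL10, 3 were lower and 2 higher, beside 31.7% of all genes, with Pdia3 at -0.48, Jak1 at -0.20, Socs1 at -0.50, Canx at 0.13 and Cd80 at 0.83. Socs1, a feedback inhibitor of interferon signalling, rose by 0.61 ± 0.13 and Cd80, a T cell costimulator, fell by 1.18 ± 0.19 with mono-IL10 against PBS (edgeR, adjusted p = 0.0133 and 0.0028), the 2 calls of 27 there, beside 5.57% of all genes. In macrophages, IL10/2-Trikine against PBS gave 3 of 28 lower, H2-Q4 (-0.49), Pdia3 (-0.32) and Cd80 (-0.42), beside 15.5% of all genes. Mono-IL10 against PBS gave Pdcd1lg2, the other PD-1 ligand, at 0.90, Irf2 at -0.18 and Cd80 at -0.23, 3 of 28 beside 24.6% of all genes, and DESeq2 kept the call of Cd80 (adjusted p = 0.0359) but not those of Pdcd1lg2 (adjusted p = 0.0930) and Irf2 (adjusted p = 0.0529). IL10/2-Trikine against mono-IL10 gave 0 of 28 calls in macrophages by edgeR and 0 by DESeq2, with 6 at an unadjusted p under 0.05. Dendritic cells had 0 of 26 by edgeR in each comparison, with 5, 4 and 3 at an unadjusted p under 0.05 and 1, 1 and 0 by DESeq2, for IL10/2-Trikine against PBS, against mono-IL10 and mono-IL10 against PBS.

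Over the 15 mice, the mean z-score of the levels of the 8 genes was lowest in mono-IL10 mouse 3 in both tumor cells (-1.81) and macrophages (-1.10). In tumor cells the genes most like it were Tgtp2, Ubd, Gbp9, Gm4841 and Gbp7, with Pearson r from 0.961 to 0.967. In macrophages they were C3, Samhd1, Cxcl9, Hk3 and Gbp2, with r from 0.80 to 0.89. These correlations are descriptions over mice that share libraries, and the 8 genes and the 29 list genes were left out of the ranking.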

How the data were processed

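The authors made and deposited raw UMI counts for each gene in each barcode, with Cell Ranger on GRCm39 and no scaling. A table deposited by the authors names clusters of T and NK cells and, for each cell, its mouse, its counts of UMIs and genes and the percent of mitochondrial UMIs; 7858 of its cells, of 1 group not analysed here, were not used. The submitters' processing notes name Seurat 5.1.0 and DESeq2 1.46.0. The members and gene lists were chosen with earlier results of these data known.

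Kept barcodes had 1000 genes or more and mitochondrial UMIs of 10% or less (92485 cells after doublets were left out). Mice were assigned with HTODemux of Seurat 5.3.0 at a quantile of 0.99, which gave the deposited call in 97.1% to 98.6% of annotated cells, and barcodes with more than 1 hashtag were left out as doublets. The other cells were grouped into 60 k-means clusters on 40 components (scikit-learn 1.9.0) without the members and list genes, and named from marker lists. Clusters with low or mixed marker scores stayed unnamed and entered no class named from markers. Among them were cluster 33, scoring best for macrophages, with 1281, 264 and 243 cells in PBS, mono-IL10 and IL10/2-Trikine. Cluster 11, scoring best for tumor cells, had 1078, 307 and 1550 cells. The macrophage and tumor classes are thus parts of their cell types. Names are written "-like" because they rest on these markers.

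UMI counts were summed per mouse and class (at least 10 cells) and tested with edgeR 4.0.16 (R 4.3.3), with filterByExpr, TMM factors and Benjamini-Hochberg adjustment over all genes of a comparison. The 3 groups shared 1 estimate of the spread. The summed totals ran from 33913 to 62410376 UMIs. Differences between classes used log2(CPM + 1) with a pseudocount of 1 and exact permutation tests. Named genes were the 8 members, list genes called in a comparison and the 5 genes most correlated with the members in tumor cells and in macrophages. Promoters came from RefSeq (GRCm38.p6). DESeq2 1.42.0, other filters, depths, clusterings and left-out mice were tried as alternatives.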

Additional observations from a re-analysis of the deposited data

Results flagged for a closer look

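Of 120 groups of 4 or 5 mice tested for a mouse far from the others of its group by Dixon's criterion, 9 met it, and chance gives about 1 in 20. Each value below is a TMM-scaled CPM. In tumor epithelial-like cells, PBS mouse 4 was high for Tap1 (45.8, next 29.1) and Nlrc5 (37.5, next 24.2), and IL10/2-Trikine mouse 1 was high for Tap1 (50.5, next 38.3) and Cd274 (16.7, next 9.64). These 2 mice also had the largest share of the interferon-led tumor cluster in their groups, 6.85% and 8.32%, and the part of that share in the levels was not tested.

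In macrophage or monocyte-like cells, PBS mouse 4 was high for H2-K1 (1599, next 1237), Tapbp (201, next 159) and Nlrc5 (41.4, next 31.2). Its share of the interferon-led macrophage cluster was 1.65%, within the PBS range of 0.635% to 3.36%. In NK cells, PBS mouse 2 was high for Tap2 (114, next 67.1), a level resting on 11 UMIs, and mono-IL10 mouse 5 was low for Cd274 (104, next 218), a level resting on 19 UMIs.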

How the results depend on the processing

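Every alternative kept the direction of the 11 calls. Among all 2701 alternative values of the members, 182 had another sign than the reported difference, 19 of them at fixed cluster weights, all for differences that were not called (adjusted p from 0.443 upward). Of the counts of calls, 311 stayed within 1.5 times, 24 rose and 39 fell, 4 of these at fixed cluster weights. There 24 exact tests per class keep a lone gene from an adjusted p below 0.190. Before adjustment, p was 0.0159 for Tapbp in tumor cells and 0.0317 for Cd274 in macrophages against mono-IL10 (exact permutation test). It was 0.159 for H2-D1 in tumor cells and 0.540 for Cd274 in macrophages with mono-IL10 against PBS. The limit alone thus did not set the losses of the latter calls. Of the pooled levels and ratios of tumor cells by hashtag call, 54 moved by more than their spread or counting error. The number of members called changed as follows, in the order IL10/2-Trikine against PBS, IL10/2-Trikine against mono-IL10 and mono-IL10 against PBS. In tumor cells, 1 became 0 in marker-free cells and at fixed cluster weights, 1 became 0 with thinned totals and at fixed weights and 2 without the interferon-led cluster, while without TMM factors and in marker-free cells the count stayed at 1 with Tapbp or B2m called in place of H2-D1, and leaving out 1 mouse gave 0 to 1, 0 to 3 and 0 to 2. In macrophages, 0 became 1 with no filter on low counts, with 30 components and 40 clusters, with wider macrophage clusters and without the interferon-led cluster, 1 became 0 at fixed weights, and 1 became 0 without TMM factors, thinned, with 40 clusters, with wider clusters, without the interferon-led cluster and at fixed weights, with 0 to 1, 1 to 1 and 0 to 4 when 1 mouse was left out. In dendritic cells, DESeq2 gave 1 in place of 0 for both comparisons with PBS, and leaving out 1 mouse gave 0 to 0, 0 to 0 and 0 to 1. In NK cells, 1 became 2 with DESeq2, without TMM factors and in marker-free cells and 0 with no filter, 1 became 3 in marker-free cells, and leaving out 1 mouse gave 1 to 2, 0 to 1 and 0 to 0. In T cells, 3 became 2 with thinned totals, where Nlrc5 was not tested, in marker-free cells, without Cycling_T, without the naive clusters and without both. It became 4 with DESeq2 and without TMM factors. Next, 2 became 4 with no filter and 3 without TMM factors, where Tap1 was added. It became 1 with thinned totals, at least 30 cells per mouse, marker-free cells, without the naive and without the naive and Cycling_T clusters. Last, 0 became 1 without TMM factors, and leaving out 1 mouse gave 2 to 4, 1 to 3 and 0 to 1. Without mono-IL10 mouse 4, H2-K1 was called in T cells for mono-IL10 against PBS (-0.36, adjusted p = 0.0394). Without mono-IL10 mouse 1, Tap1 was called in T cells (0.87, adjusted p = 0.0208) and Tapbp in tumor cells (0.35, adjusted p = 0.0155), both against mono-IL10. Without mono-IL10 mouse 5, Cd274 was called in dendritic cells (0.45, adjusted p = 0.0433). Where a filter or a left-out mouse leaves fewer genes, cells or mice, less can be called, and otherwise the cause was not tested. The wider macrophage clusters, the interferon-led and the naive exclusions were chosen after seeing the data. NK cells with at least 30 cells per mouse could not be fitted, since PBS kept 1 mouse. No paired analysis was possible because mice of different groups share no replicate number in the labels. Nlrc5 in T cells, at 2 to 12 UMIs per IL10/2-Trikine mouse, is limited by depth.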
